A study of Homo sapiens with 2 samples.

Results

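To describe NUDT21 CUT&Tag peaks near the ends of human chromosomes, peaks whose summit lay within 2 Mb of either end of chromosomes 1 to 22 in hg38 were taken from the peak lists of 2 replicates. The windows held 10564 of the 97162 peaks of replicate 1 and 8685 of the 68532 peaks of replicate 2, or 19249 of 165694 peaks in all. Both samples were J.gamma1 cells, a line derived from Jurkat that models human T-ALL (T-cell acute lymphoblastic leukemia), profiled with the same NUDT21 antibody. The labels name no treatment. In CUT&Tag a transposase is tethered by the antibody and cuts the DNA nearby. Both samples formed 1 group, so no test over samples exists, and no control sample was analysed here. By the study's methods the replicates were biologically independent.

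NUDT21 is the small subunit of cleavage factor I, which binds UGUA in nascent RNA and helps to choose the site at which a transcript is cleaved and polyadenylated. Subtelomeres lie between the telomeres and the first unique genes. They are known for high GC content on many arms, dense genes, minisatellite arrays made of short units in tandem, and gene families copied between chromosome ends, such as OR4F olfactory receptors, DUX4 and WASH genes. Reads from such copies and arrays are hard to place, and how reads with several matches were treated is not given in the sources used here.

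The repeat-rich loci were led by arrays of short units in tandem. The sequence around the summit is shown for the 5 strongest ones found in both replicates because the unit can be read from it. All are reference sequence of hg38, plus strand, 5′ to 3′. Capitals mark each copy of the 12-base word that was commonest in the region.
PTPRN2 array, chr7:158523976-158524125: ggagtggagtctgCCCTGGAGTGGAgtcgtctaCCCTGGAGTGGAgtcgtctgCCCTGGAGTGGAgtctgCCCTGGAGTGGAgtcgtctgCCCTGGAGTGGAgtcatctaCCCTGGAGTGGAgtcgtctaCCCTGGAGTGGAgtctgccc
EHMT1 array, chr9:137845810-137845959: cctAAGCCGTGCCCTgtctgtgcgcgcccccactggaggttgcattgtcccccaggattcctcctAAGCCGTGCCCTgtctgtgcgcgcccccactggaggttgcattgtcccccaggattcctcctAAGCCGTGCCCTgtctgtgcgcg
BSG array, chr19:564261-564410: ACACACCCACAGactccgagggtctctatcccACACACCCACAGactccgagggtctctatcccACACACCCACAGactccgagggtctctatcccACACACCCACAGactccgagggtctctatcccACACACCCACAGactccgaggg
LSS array, chr21:46201308-46201457: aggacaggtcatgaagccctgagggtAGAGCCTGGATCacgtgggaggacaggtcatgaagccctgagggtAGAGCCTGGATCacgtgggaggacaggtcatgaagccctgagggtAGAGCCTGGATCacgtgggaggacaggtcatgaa
BRF1 array, chr14:105231242-105231451: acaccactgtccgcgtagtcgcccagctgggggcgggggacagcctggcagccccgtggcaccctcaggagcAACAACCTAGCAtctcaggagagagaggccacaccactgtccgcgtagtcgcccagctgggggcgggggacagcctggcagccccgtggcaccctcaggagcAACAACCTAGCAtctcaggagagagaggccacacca

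In the PTPRN2 array the word CCCTGGAGTGGA stood 7 times in 150 bases, at spacings of 17 and 20 bp. The EHMT1 array had a unit of 62 bp, the BSG array of 32 bp, the LSS array of 45 bp and the BRF1 array of 102 bp. None of the 5 stretches held TGTA or TACA, the DNA letters of UGUA on either strand. This was the more frequent case at summits near the ends. Of the stretches of 150 bases around the summits in the windows, 34.8% in replicate 1 and 37.0% in replicate 2 held TGTA on either strand, against 42.1% and 42.7% at summits in the rest of the autosomes. Over all consecutive stretches of 150 bases, the shares were 58.2% in the windows and 72.0% in the rest. The letters are AT-rich and summits are GC-rich, and the part of base composition in these shares was not tested.

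Peaks were denser near the ends. The windows held 76.2 Mb of known sequence, 2.76% of the autosomes, but 11.6% of the autosomal peaks of replicate 1 and 13.2% of those of replicate 2. Replicate 1 had 138.6 peaks per Mb in the windows and 30.2 in the rest, and replicate 2 had 114.0 and 21.4. The ratio was 4.596 in replicate 1 and 5.34 in replicate 2, with a mean of 4.97 ± 0.524 (SD, n = 2), so the excess was larger than the spread between the replicates. By chromosome, the ratio was above 1 in both replicates on 20 of 22 chromosomes, with a median of 4.397 in replicate 1 and 4.91 in replicate 2. Chromosome 5 had the highest ratio in both, 22.9 and 29.2. The other two chromosomes were 19, with ratios of 0.902 and 1.23, and 6, with 1.47 and 0.995, so each lay on both sides of 1.

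The density did not peak at the very end of the known sequence. Within 0.25 Mb of the ends replicate 1 had 93.1 peaks per Mb and replicate 2 had 58.3. From 0.5 to 1 Mb the densities were 153 and 129, the highest of all distances examined. They were 115 and 89.9 from 2 to 3 Mb, 58.2 and 43.3 from 5 to 10 Mb, and 21.3 and 14.4 beyond 20 Mb. The last 100 kb inside the limit of 2 Mb held 522 peaks in replicate 1 and 418 in replicate 2, with median folds of 3.98 and 4.28. The first 100 kb outside it held 431 and 355 peaks, with median folds of 3.999 and 4.29.

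**Figure D1:**
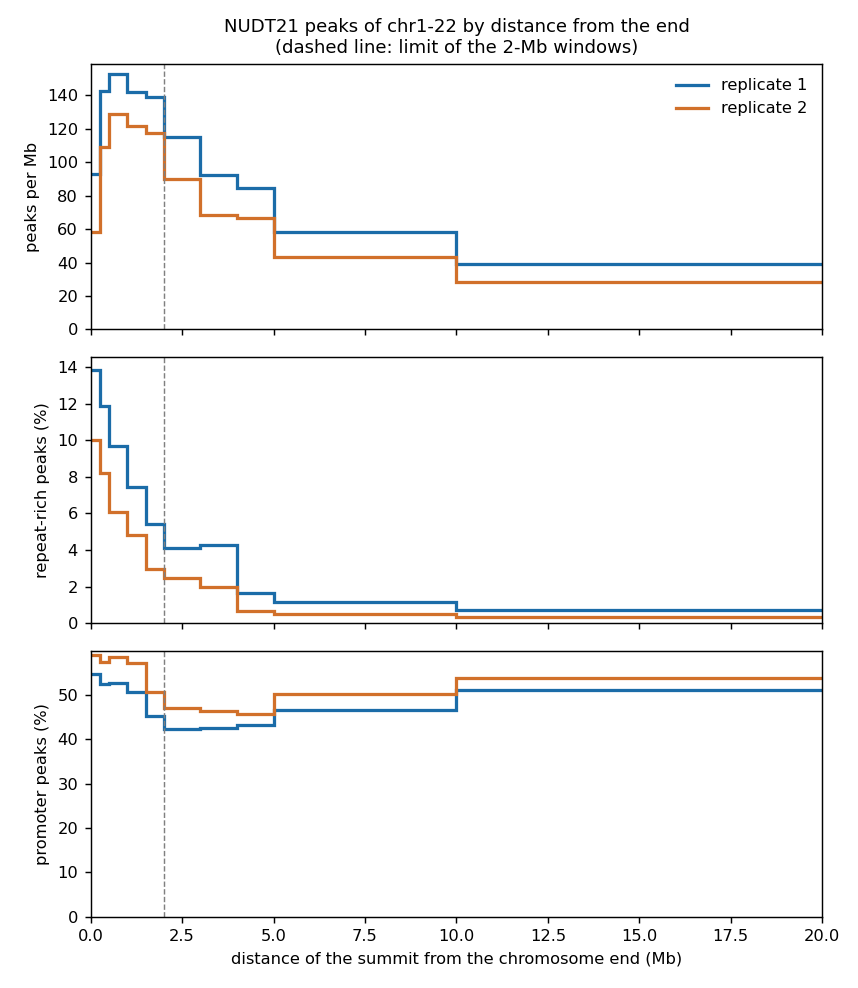
Peaks per Mb (top), percent of repeat-rich peaks (middle) and percent of promoter peaks (bottom) by distance of the summit from the chromosome end in Mb, over chromosomes 1 to 22, with 1 line for each replicate and no error bars. Density is highest between 0.5 and 1 Mb at 153 and 129 peaks per Mb, while the share of repeat-rich peaks is highest within 0.25 Mb at 13.9% and 10.02%.

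Single ends differed far more than the replicates did. Of the 44 ends, the short arms of chromosomes 13, 14, 15, 21 and 22 had no known sequence in their windows, which left 39. Of these, 31 had a higher density than the rest of the autosomes in both replicates. The densest end was 20q, with 286 peaks per Mb in replicate 1 and 290 in replicate 2. It was followed in replicate 2 by 17q with 287, 16p with 266 and 19p with 258, and in replicate 1 by 21q with 268 and 17q with 267. Their windows had between 80 gene starts, at 21q, and 185, at 16p. At the other extreme, 3p held 1 peak in replicate 1 and 0 in replicate 2, where 0 peaks allow up to 3. The 4q end, which carries the DUX4 array, held 11 peaks and 1 peak, and 9p held 12 and 7. The 10 ends with most peaks held 46.6% of the subtelomeric peaks of replicate 1 and 53.0% of those of replicate 2.

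The order of the ends was alike in both replicates. Spearman's rho between the densities of the 39 ends was 0.954, as a description over ends that share the same 2 libraries. Density and the GC content of the window had a rho of 0.885 in replicate 1 and 0.923 in replicate 2, and density and gene starts per Mb a rho of 0.567 and 0.691. The 3p window had a GC content of 36.8% and the 20q window 56.4%. The 10q window had 54.1% and held 169 and 86.6 peaks per Mb, below other ends of like GC content. Replicate 1 had 2.41 times as many peaks as replicate 2 at 8p, the highest of the 34 ends with at least 20 peaks in each list, and 0.834 times as many at 19p, the lowest. The median was 1.34.

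**Figure D2:**
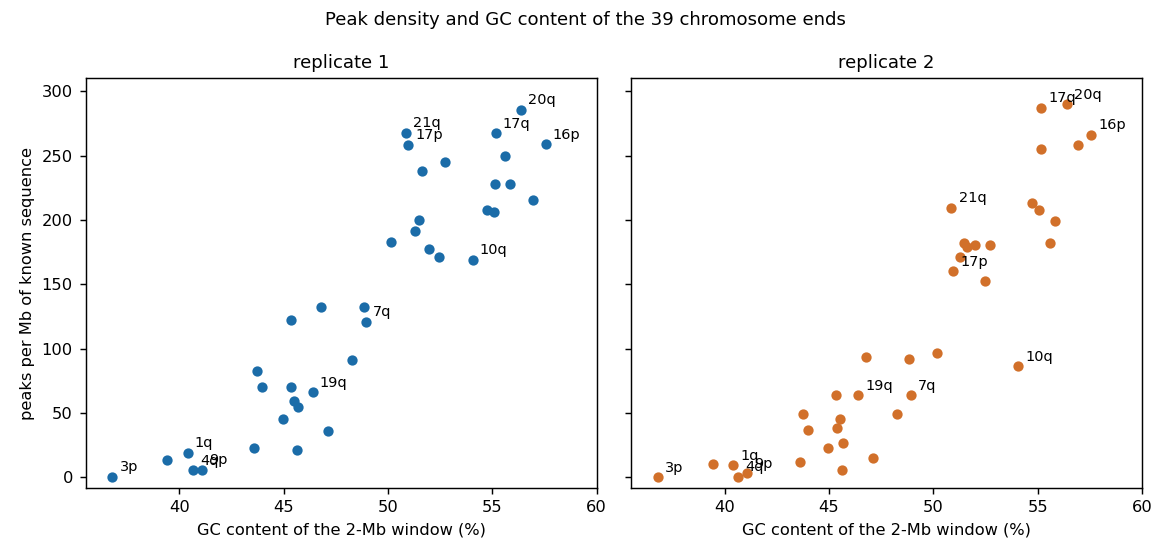
Peaks per Mb of known sequence against the GC content in percent of the 2-Mb window for the 39 chromosome ends with known sequence, replicate 1 on the left and replicate 2 on the right, with 1 point for each end. Density is near 0 at 3p (GC content 36.8%) and reaches 286 and 290 peaks per Mb at 20q (56.4%).

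Because GC content and genes both differed between windows and rest, densities were compared in bins of 100 kb. The windows had a GC content of 48.9% against 40.7%, and 43.5 gene starts per Mb against 20.99. For protein-coding genes alone, starts per Mb were 16.3 and 6.67. Bins with a GC content of at least 56% made up 19.3% of the windows and 0.476% of the rest. In such bins the windows had 245 peaks per Mb in replicate 1 and 253 in replicate 2, and the rest had 274 and 246. Between 52% and 56% the windows had 252 and 201 and the rest 261 and 219. Between 48% and 52% they had 157.6 and 109 against 163 and 118. So in these 3 classes the windows were lower in every case but 1. Between 40% and 48% the windows were higher, with 85.5 and 54.4 peaks per Mb against 59.5 and 38.1 between 44% and 48%, and 37.4 and 19.6 against 14.6 and 8.35 between 40% and 44%. Between 36% and 40% the replicates differed in direction, with 4.19 and 1.05 in the windows against 2.84 and 1.53. Under 36% the windows held 0 peaks and the rest 0.372 and 0.146 per Mb.

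When the rest was weighted to the GC content of the bins in the windows, the density ratio was 1.00 in replicate 1 and 0.999 in replicate 2. When it was weighted to their number of gene starts instead, the ratio was 2.38 and 2.63. Weighted to both, it was 1.02 and 0.991. Summed over all GC classes, the density near the ends was thus close to that of the rest at the same mix of GC content. The match was a net one, as the windows were higher than the rest in some GC classes and lower in others. Whether GC content causes the excess was not tested. In deposited peak lists alone, binding to GC-rich chromatin and a preference of the assay for GC-rich DNA cannot be told apart.

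**Figure D3:**
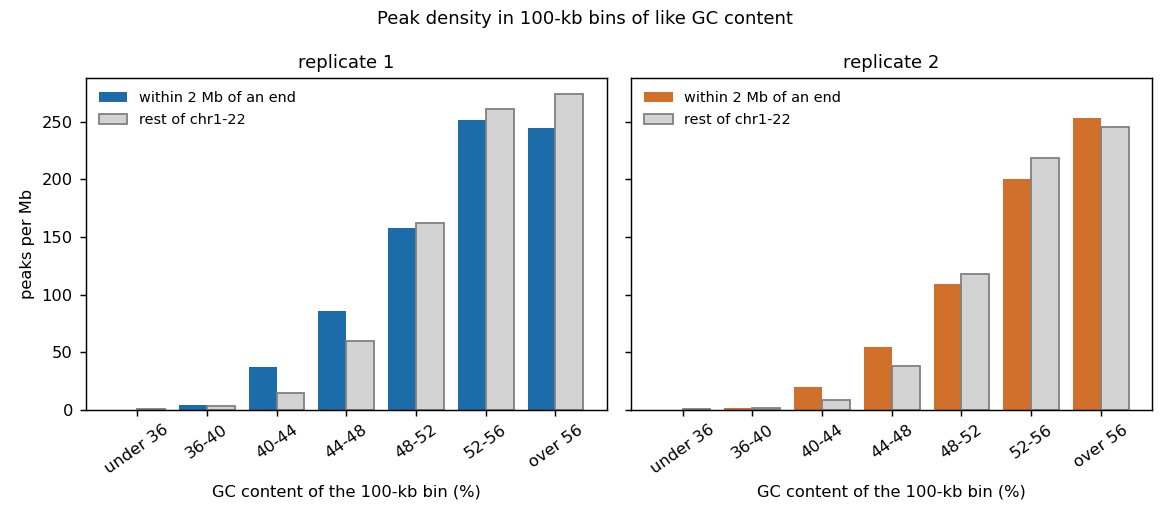
Peaks per Mb in 100-kb bins grouped by GC content in percent, replicate 1 on the left and replicate 2 on the right, with coloured bars for bins within 2 Mb of an end and grey bars for the rest of chromosomes 1 to 22. The bars of like GC content lie close together from 48% upward, as in the class of 52% to 56% with 252 against 261 peaks per Mb in replicate 1.

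The promoter share did not separate the ends from the rest. A peak counted as a promoter peak if its interval came within 3000 bp of an annotated transcript start. In replicate 1, 50.4% of the subtelomeric peaks were promoter peaks (95% Wilson interval 49.4 to 51.3) and 50.7% of the others (50.4 to 51.1). In replicate 2 the shares were 55.99% (54.9 to 57.0) and 53.9% (53.5 to 54.3). The mean difference of 0.877 percentage points ± 1.72 (SD, n = 2) was smaller than the spread between the replicates, and its sign differed between them. The intervals cover counting error only. Between 2 and 4 Mb from the ends the shares were lower, 42.5% and 46.8%. By chromosome, the difference was above 0 in both replicates on 11 chromosomes and below 0 in both on 8. Among ends with at least 20 peaks in each list, 7q had the lowest promoter share, 21.2% and 20.5%, and 19q the highest, 75.8% and 85.0%. The 7q window holds only 5 protein-coding gene starts, while 19q, with its zinc finger genes, holds 78.

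Outside promoters, introns held 28.7% of all subtelomeric peaks in replicate 1 and 25.1% in replicate 2, and intergenic sequence held 17.3% and 15.4%. In the rest the intron shares were 29.1% and 27.4% and the intergenic shares 15.8% and 14.05%. Gene ends are where cleavage factor I acts on RNA. Of the subtelomeric peaks outside promoters, 142 of 5241 in replicate 1 and 127 of 3822 in replicate 2 had their summit no more than 1000 bp from where a protein-coding gene ends. These were 2.71% (2.30 to 3.19) and 3.32% (2.80 to 3.94), against 3.31% (3.14 to 3.49) and 3.74% (3.52 to 3.98) in the rest. Both shares near the ends were the lower ones, and the intervals of windows and rest overlapped in both replicates.

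Subtelomeric peaks were richer in GC. Their median GC content was 59.97% in replicate 1 and 59.91% in replicate 2, against 57.9% and 57.5% in the rest. The trait did not stop at the limit of the windows. Between 2 and 4 Mb from the ends, which is part of the rest, the medians were 59.3% and 58.9%. Within 0.25 Mb of the ends they were 59.4% and 58.8%. The mean difference between windows and rest was 2.24 percentage points ± 0.228 (SD, n = 2). This was larger than the spread between the replicates and far smaller than the difference between the sequences themselves. It was above 0 in both replicates on 19 of 22 chromosomes. The lowest median over the ends with at least 20 peaks in each list was at 17p, with 55.97% and 56.1%.

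They were also longer and a little stronger. Median lengths were 809.5 bp in replicate 1 and 815 bp in replicate 2, against 615 bp and 632 bp. Peaks covered 23.2% and 16.5% of the windows, but 2.97% and 2.01% of the rest. Of all autosomal peaks of 10 kb or more, 46.7% in replicate 1 and 45.6% in replicate 2 lay in the windows, 200 and 72 peaks. The median fold enrichment over the local background, as the authors' peak caller gave it at the summit, was 4.23 in replicate 1 and 4.49 in replicate 2, against 3.93 and 4.19 in the rest. The mean difference was 0.302 ± 0.00227 (SD, n = 2), and it was above 0 in both replicates on 13 of 22 chromosomes and below 0 in both on 6. The number of fragments at a summit was solved from its fold and −log10 p. Their median was 32 in replicate 1 and 21 in replicate 2, against 29 and 19. The recovered background, here called the control level, had medians of 6.0 and 3.86 near the ends and 6.0 and 3.90 in the rest. The sources used here name no control library, so what the folds are relative to, beyond the local background, is not known.

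Whether the replicates overlapped more near the ends depended on how overlap was counted. Of the subtelomeric peaks of replicate 1, 62.2% (61.3 to 63.2) touched a peak of replicate 2 by at least 1 bp, against 55.8% (55.5 to 56.2) in the rest. Of those of replicate 2, 92.8% (92.3 to 93.4) touched a peak of replicate 1, against 84.6% (84.3 to 84.9). The mean difference was 7.30 percentage points ± 1.25 (SD, n = 2). With a reciprocal overlap of at least 50%, the shares were 40.1% and 48.8% near the ends and 39.2% and 55.4% in the rest, so the mean difference was −2.84 percentage points. With summits within 200 bp of each other they were 36.3% and 44.2% against 36.2% and 51.1%, a mean difference of −3.37. Longer and denser peaks touch more easily. Within 5 classes of like length, the touching share of replicate 1 was below that of the rest in 4, for example 42.8% against 44.9% for peaks over 400 and up to 700 bp. That of replicate 2 was above the rest in 4, with 88.9% against 80.4% in the same class, and 100% in both for peaks over 2500 bp. The part of the covered sequence in these shares was not tested.

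Over single ends with at least 20 peaks in each list, 6p had the lowest touching share, 29.5% in replicate 1 and 56.5% in replicate 2. The highest was 81.9% at 16q in replicate 1 and 98.4% at 19p in replicate 2. Both lists together gave 6137 shared regions in the windows, 12.5% of the shared regions of the autosomes. When the shared autosomal regions were ordered by the sum of both fold ranks, 20 of the first 100 lay in the windows, and 229 of the first 1000 did. The folds of the 6137 regions had a Spearman's rho of 0.712 between the replicates, against 0.672 over the 42819 regions in the rest, as a description over regions of the same 2 libraries.

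The 10 strongest shared regions near the ends were 8 promoters and 2 repeat arrays. First among the promoters was P4HB, which encodes a protein disulfide isomerase of the endoplasmic reticulum, at chr17:81857962-81862776. Its fold was 35.2 in replicate 1 and 29.9 in replicate 2, from 216 and 115 fragments. FAM174C on chromosome 19 followed with 34.98 and 29.9. Of the promoters, 4 lay on 16p and 1 on 16q. MCRIP2 had folds of 41.5 and 20.6. The ubiquitin ligase gene STUB1 had 31.8 and 23.02 in a merged region of 52111 bp that holds several genes. The small GTPase gene RAB40C had 34.96 and 20.5, and SPSB3 27.8 and 19.1. SPATA2L on 16q had 27.5 and 18.9, and FOXK2, which encodes a forkhead transcription factor, had 27.6 and 18.1 on 17q. In replicate 1 all had summits within 314 bp of a start, and control levels between 3.77 and 7.01.

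The strongest region of all lay in an intron of PTPRN2, which encodes a phosphatase-like protein of secretory granules in neurons and endocrine cells. It spanned chr7:158523121-158526416, 0.822 Mb from the 7q end. Its fold was 110.9 in replicate 1 and 56.4 in replicate 2, rank 1 among the shared autosomal regions. It held 2442 and 706 fragments over control levels of 19.3 and 11.5. Both control levels were above the medians of 6.0 and 3.86 near the ends. The array printed above ran over 1194 bp with 47 copies of the word on either strand, and both summits lay inside it, at positions 158524051 and 158524009. The peak edges lay 6501 and 6397 bp from the nearest transcript start.

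The rest of PTPRN2 was unlike this array. The gene is 1.05 Mb long, lies within the window, and held 101 of the 241 peaks of the 7q end in replicate 1 and 45 of the 127 in replicate 2. Of these, 36 and 13 were repeat-rich, and 12 and 7 were promoter peaks. The median fold was 3.25 in both replicates. After the array, the highest folds were 7.39 and 6.47. The same word stood at least 4 times within a cluster at 3 other places. On 6q, chr6:169260159-169260860 held 21 copies without a peak in either replicate. On chromosome 19, 6 copies at chr19:54833638-54834451 had no peak either, and 4 copies at chr19:2730874-2731203 had peaks with folds of 5.13 and 7.83. Copies of the word alone therefore did not go with a peak at 2 of the 4 places.

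Repeat-rich peaks were a small but frequent class near the ends. A peak was called repeat-rich where more than 25% of its words of 20 bases stood more than once in the peak. There were 908 such peaks in replicate 1, 8.60% of the subtelomeric peaks (8.08 to 9.14), and 468 in replicate 2, 5.39% (4.93 to 5.88). In the rest the shares were 1.17% (1.10 to 1.25) and 0.554% (0.496 to 0.618). The windows thus held 48.9% and 59.6% of all repeat-rich peaks of the autosomes. The share was 13.9% and 10.02% within 0.25 Mb of the ends and 5.40% and 2.97% from 1.5 to 2 Mb. Since long peaks can hold more repeats, the words were also counted in the fixed stretch of 1000 bp that held each summit, which gave 9.37% and 6.13% against 1.12% and 0.599%.

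The sequence itself is repeat-rich near the ends. Of all stretches of 1000 bp, 4.35% in the windows and 0.659% in the rest were repeat-rich by the same measure. Of the 3310 repeat-rich stretches in the windows, 27.3% held a summit in replicate 1 and 16.3% in replicate 2. Of the 72845 other stretches in the windows, 13.1% and 11.1% did. The comparison changed with GC content. Among stretches with 50% to 60% GC, repeat-rich ones held a summit in 29.02% and 17.01% of cases and the others in 24.8% and 19.96%, so the direction differed between the replicates. Among those with 60% to 70% it was 38.6% and 24.3% against 29.8% and 30.6%, again in opposite directions. Outside the windows, repeat-rich stretches with 50% to 60% GC held a summit in 21.3% and 11.4% of cases, and the others in 20.4% and 15.2%.

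Repeat-rich peaks had fewer partners in the shorter list. In replicate 1, 50.1% of the repeat-rich subtelomeric peaks (46.9 to 53.4) touched a peak of replicate 2, against 63.4% (62.4 to 64.3) of the others. In replicate 2 the shares were 97.0% (95.04 to 98.2) and 92.6% (92.0 to 93.1). Repeat-rich peaks had a median control level of 8.0 in replicate 1 and 5.01 in replicate 2, above 6.0 and 3.79 for the others, and their part in the calls was not tested. Both replicates shared 421 repeat-rich regions. The commonest 12-base word of a region stood a median of 19 times, at a median spacing of 42 bp (interquartile range 32 to 54). The spacing was between 10 and 100 bp in 404 of them, and the regions held 411 different words, so they were not copies of 1 array. Their median folds were 4.94 and 4.22, against 4.88 and 4.66 for the 5716 other shared regions of the windows.

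The strongest repeat-rich regions lay in introns. After PTPRN2, the array in an intron of EHMT1, which encodes a histone H3 lysine 9 methyltransferase, had folds of 34.9 and 19.8 at chr9:137844972-137846660, with 529 and 162 fragments over control levels of 13 and 7.24. The array at BSG, the gene of the surface glycoprotein basigin, had folds of 21.4 and 13.5 at chr19:561994-566134, within an intron of the antisense gene BSG-AS1. Its summit in replicate 1 lay outside BSG, 6941 bp from the BSG start, which was the nearest one and gave the array its name. The array in an intron of LSS, the gene of lanosterol synthase of cholesterol synthesis, had 17.5 and 11.2 at chr21:46201008-46201608. The one in BRF1, which encodes a subunit of the RNA polymerase III initiation factor, had 15.2 and 12.1 at chr14:105228153-105236550. This last peak began within 3000 bp of a start, while the other 4 were no promoter peaks. Repeats did not always give like values in both replicates. Chosen after their values were seen, chr12:132597805-132599224 had folds of 35.2 and 6.12 and chr4:1580279-1581569 folds of 31.8 and 5.31.

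**Figure D4:**
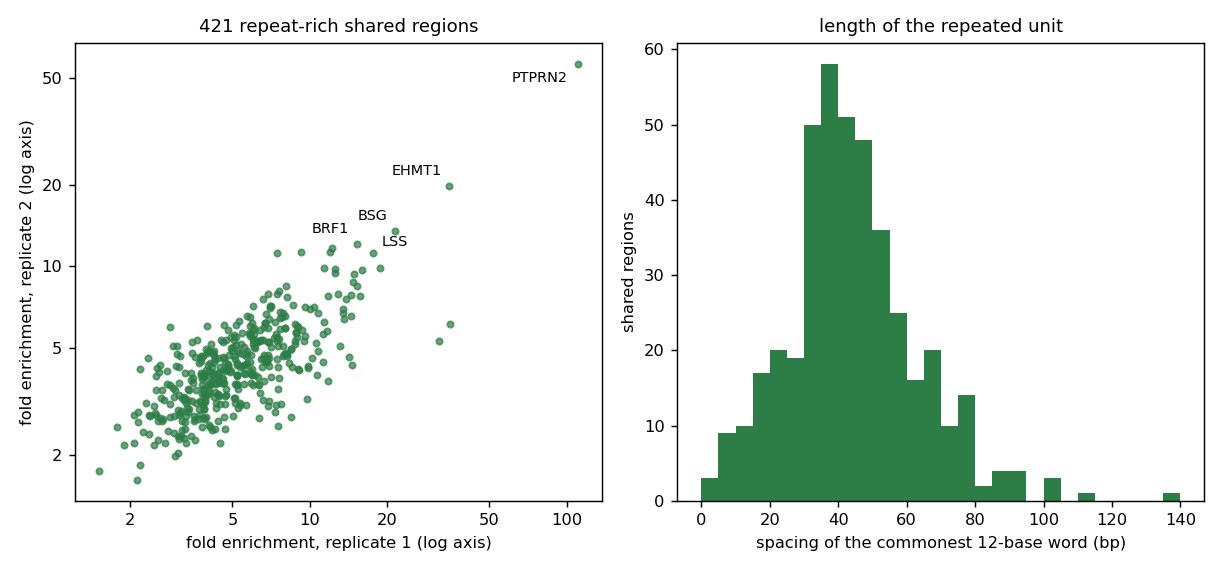
Left, fold enrichment at the summit in replicate 1 against replicate 2 on log axes for the 421 repeat-rich regions shared by both replicates within 2 Mb of an end, with the 5 strongest labelled by their gene. BSG is the gene with the nearest start, and the array so labelled lies in BSG-AS1. Right, number of these regions by spacing in bp of their commonest 12-base word; PTPRN2 stands apart with folds of 110.9 and 56.4, and the spacing has a median of 42 bp.

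At 14q the window includes the immunoglobulin heavy chain (IGH) gene segments, which B cells rearrange and express. The stretch with these segments, 1.30 Mb long, held 125 peaks in replicate 1 and 44 in replicate 2, or 96.4 and 34.0 per Mb. The rest of the window on its centromere side held 218.5 and 233 per Mb. As a check of the label, promoter peaks in both replicates stood at 7 of 9 T-cell, 4 of 5 B-cell and 3 of 5 myeloid marker genes over the genome, while 58.6% of the 19111 protein-coding genes of the autosomes had one. The peaks thus did not tell the cell type.

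Protein-coding genes near the ends more often carried a promoter peak. Of the 1239 protein-coding genes in the windows, 88.6% (86.7 to 90.3) had a promoter peak in replicate 1, 84.1% (82.0 to 86.0) in replicate 2, and 83.6% (81.4 to 85.6) in both. Of all autosomal protein-coding genes, 71.1% had one in replicate 1, 59.4% in replicate 2 and 58.6% in both. Outside the windows 56.8% (56.1 to 57.5) had one in both. Among the genes with a promoter peak in both, the median of the highest fold was 8.77 and 7.34 in the windows, against 6.15 and 5.36 outside. Neighbouring genes can share a peak, so genes are not independent. Peaks covered 23.2% and 16.5% of the windows but 2.97% and 2.01% of the rest, so a start near the ends meets a peak more easily. The part of peak density and GC content in the gene shares was not tested.

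The gene groups near the ends ranged from all members with a promoter peak to few. The folds given for a gene are those of its highest promoter peak, near any of its annotated transcript starts. The values of the replicates can therefore come from different peaks, also from peaks inside the gene. Some of these peaks lay in repeat-rich regions, as at DUSP22 with 3.25 and 3.27. A list of housekeeping genes held mostly genes of RNA and protein synthesis, beside others such as the actin gene ACTG1, the fatty acid synthase gene FASN and the proteasome gene PSMB1. Of these, 30 of 30 in the windows had one in both replicates, against 83.6% of the coding genes in the windows and 58.6% of all, with median folds of 11.9 and 9.83. RPLP2, which encodes a ribosomal stalk protein, had 36.8 and 13.8. The mitochondrial ribosomal protein gene MRPS34 had 27.8 and 19.1, and shared its peak with NUBP2 and SPSB3. In replicate 1 the summit lay 28 bp from the SPSB3 start, so the values belong to that site rather than to the MRPS34 start. SSU72, whose product is a phosphatase of RNA polymerase II and of the 3′ end machinery, had 19.7 and 14.003. CPSF1, which encodes the large subunit of the cleavage and polyadenylation specificity factor, had 11.7 and 9.71. POLR3K and SNRNP25, head to head at 16p, shared a peak with 17.3 and 13.5. PDCD2 at 6q, with 6.37 and 3.33, had the lowest fold of the list in replicate 2.

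Genes of leukemia, NOTCH and other signalling had a promoter peak in both replicates in 24 of 25 cases, or 96.0% against 83.6% in the windows and 58.6% of all, with median folds of 10.4 and 8.21. NOTCH1, the receptor most often mutated in T-ALL, lies 1.85 Mb from the 9q end and had 14.4 and 7.34. Its peak in replicate 1 spanned chr9:136502955-136551493. That in replicate 2, chr9:136524843-136534804, lay inside the gene and did not reach its outermost start. TCF3, which encodes the E proteins of lymphoid development, had 26.2 and 15.3, and AXIN1, a brake on WNT signalling, 26.3 and 9.39. The tumour suppressor kinase gene STK11 had 13.3 and 10.6, from different peaks inside the gene, chr19:1204849-1205978 and chr19:1219822-1227593. TNFRSF18 and TNFRSF4, costimulatory receptor genes of T cells, had 22.002 and 8.54 and 7.23 and 8.16. TERT, the catalytic subunit gene of telomerase, had 4.41 and 5.40. These peaks, chr5:1265209-1266459 and chr5:1265692-1266492, also lay inside the gene, away from its outermost start. IRF4, a transcription factor gene of activated lymphocytes at 6p, had no promoter peak in either replicate.

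Genes restricted to other tissues had promoter peaks too. Of 33 in the windows, 27 had one in both replicates, or 81.8% against 83.6% in the windows and 58.6% of all, 4 in replicate 1 alone and 2 in neither, with median folds of 6.58 and 5.51. The embryonic globin gene HBZ at 16p had 37.2 in replicate 1 and 6.06 in replicate 2, and the adult globin gene HBA1 5.84 and 4.63. The HBZ values came from different peaks, chr16:138039-139760 in replicate 1 and chr16:144279-144729 in replicate 2. The former lay wholly upstream of the gene, did not reach its outermost start, and counted for HBZ by the distance rule for promoter peaks. Whether its fold belongs to HBZ or to a neighbouring start was not tested. The latter lay inside the gene. CFD, the complement factor D gene of fat and myeloid cells, had 27.9 and 9.99. The intestinal mucin gene MUC2, the neutrophil protease gene PRTN3, FOXC1 and VIPR2 had a promoter peak in replicate 1 alone. FOXF2 and FOXQ1, forkhead factor genes next to FOXC1 at 6p, had none.

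The copied gene families of the subtelomeres stood at the other extreme. Of 23 in the windows, 4 had a promoter peak in both replicates, or 17.4% against 83.6% of the coding genes in the windows and 58.6% of all, 4 had one in replicate 1 alone and 15 in neither. The 9 OR4F olfactory receptor genes and DUX4, FRG2 and FRG2B were without one. WASHC1, of the complex that nucleates actin on endosomes, had 4.62 and 4.49 and was the outermost gene of 9p, 14.5 kb from the end. SCGB1C1, SCGB1C2 and ZNF721 were the others with peaks in both. Copies of these genes share reads with near-identical copies at other ends, so their values are uncertain.

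**Figure D5:**
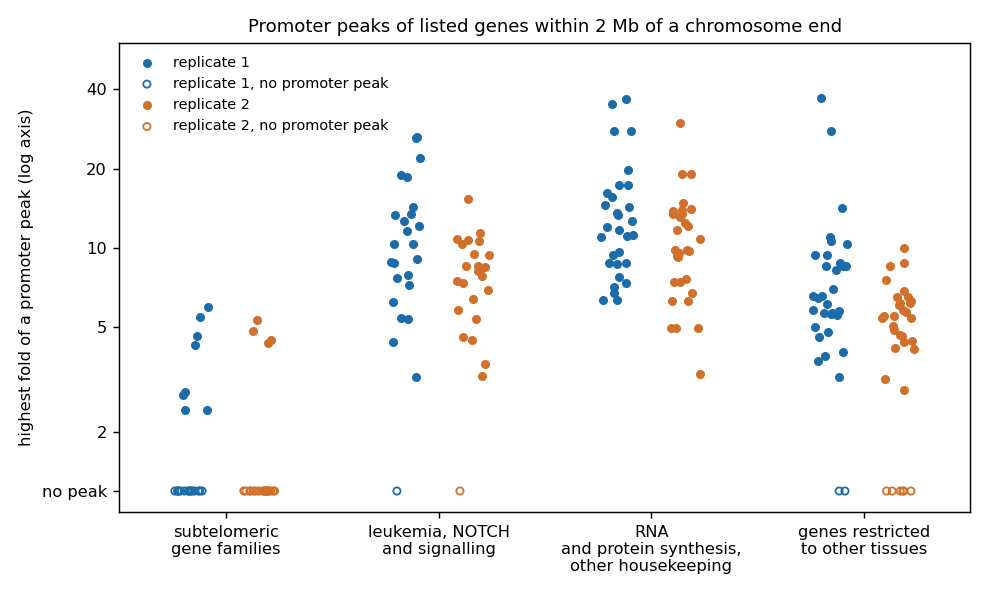
Highest fold of a promoter peak on a log axis for the listed protein-coding genes within 2 Mb of an end, in 4 groups, with 1 filled point for each gene and replicate and an open point at the bottom where it had no promoter peak. In the group of RNA and protein synthesis and other housekeeping genes 30 of 30 genes have a peak in both replicates, in the subtelomeric gene families 4 of 23.

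The outermost protein-coding genes had a share below that of the windows. Over the 39 ends, 26 of them had a promoter peak in both replicates, or 66.7% against 83.6% in the windows and 58.6% of all, 3 in replicate 1 alone and 10 in neither. These genes lay a median of 107 kb from the end. Those with the highest folds were POLR3K at 16p, with 17.3 and 13.5, and MZF1 at 19q, a zinc finger gene 44.04 kb from the end with 11.99 and 11.6. PLEKHG4B at 5p had 11.7 and 5.41, and CHAMP1 at 13q and C8orf33 at 8q had 9.92 and 4.87 and 9.78 and 8.05. The 11.7 of PLEKHG4B was that of a repeat-rich region inside the gene, chr5:164879-166748. That region had 3.75 in replicate 2, so the 5.41 came from another peak. The folds of FAM20C at 7p and DUSP22 at 6p were those of repeat-rich regions in both replicates. The count of 26 thus includes genes whose highest promoter peak was a repeat array. The 10 without a peak were OR4F genes at 1p, 5q, 8p, 15q and 19p, DUX4 at 4q, FRG2B at 10q, TUBB8B at 18p, the defensin gene DEFB125 at 20p and the adhesion molecule gene CHL1 at 3p.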

How the data were processed

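The samples were 2 replicates of NUDT21 CUT&Tag in J.gamma1. According to the study's methods, the authors trimmed reads with fastp, aligned them to hg38 with Bowtie2 (2.2.5 per the processing notes), removed duplicates and called peaks with MACS3 (3.0.1) in each replicate. The deposited lists give each peak's fold enrichment at the summit (a ratio), −log10 p, −log10 q, a score that repeats the −log10 q and was not used, and the summit. The lowest −log10 q in either deposited list was 2.00. Total reads are unknown, so precision was judged from fragments at the summit, 11 to 2442 near the ends in replicate 1 and 8 to 706 in replicate 2. They were solved from the deposited fold and −log10 p as a Poisson tail over the background. A solution was taken for 100% of autosomal peaks, with a pileup scale of 0.921 in replicate 1. For the highest −log10 p values, as at the PTPRN2 array, it was rounded without the check of fit made elsewhere. The step was checked on simulated peaks with far fewer fragments than that array.

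Samples were put in their group by the GEO labels. Known sequence, GC content and repeats came from hg38, and genes from GENCODE release 44. Shares carry 95% Wilson intervals (statsmodels 0.14.6, Python 3.11.15), for counting error only. Named loci were the PTPRN2 region, the 10 strongest shared regions, the 5 strongest with at least 25% repeated words of 20 bases, the outermost coding gene of each end, 4 gene lists, and the ends with the highest and lowest density. Members, lists and most alternatives were chosen with earlier results of these data known. Alternatives were other window sizes, thresholds, promoter and overlap definitions, GC and gene-start weighting, and leaving out each replicate or end. Some items found by these rules are not reported here.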

Additional observations from a re-analysis of the deposited data

Results flagged for a closer look

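Chromosome X was in neither side of the comparisons, and its ends also held peaks. Within 2 Mb of its p end there were 70 peaks in replicate 1 and 22 in replicate 2, with median folds of 4.39 and 4.61. Within 2 Mb of its q end there were 155 and 111 peaks, with median folds of 4.44 and 4.56. They were listed here because they lie in data that the comparisons did not use, with no control sample to set them against.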

How the results depend on the processing

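No paired analysis was possible because the design has 1 group. Over the 5 comparisons, the values that an alternative moved by at least 1 SD of the replicates are given here, and the cause was not tested. At a −log10 q of 5 or more the density ratio was 5.52. It was 7.86 over the 10000 peaks with the highest −log10 p, 2.51 weighted to gene starts, 0.9995 weighted to GC content, with the replicates at 1.00 and 0.999, and 1.00 weighted to both, an alternative chosen after seeing the data. The promoter difference was 3.42 percentage points within 1 Mb, and turned to −4.82 within 5 Mb, −0.288 at the stricter q, −6.48 over the 10000 peaks, −0.887 with promoters of 1000 bp, −1.30 with coding starts and −0.917 by summits. The GC difference was 1.31 within 1 Mb, 1.75 within 5 Mb, 1.85 over the 10000 peaks and 2.49 around summits. The overlap difference was 5.60 within 1 Mb, and turned to −2.84 with a reciprocal overlap and −3.37 with summits within 200 bp. The fold difference, whose SD is very small, was 0.285 within 1 Mb, 0.244 within 5 Mb, 0.245 at the stricter q, 0.327 over the 10000 peaks, 0.316 without 7q and 0.308 without repeat-rich peaks. Leaving out 1 replicate gave 4.596 to 5.34 for density, −0.339 to 2.09 for promoters, 2.08 to 2.40 for GC, 6.42 to 8.18 for overlap and 0.300 to 0.303 for fold. Leaving out 1 end at a time, chosen after seeing the data, gave 4.80 (without 20q) to 5.10 for density, 0.325 (without 11p) to 1.74 (without 7p) for promoters and 0.2302 (without 17q) to 0.330 for fold. Unknown read totals limit any comparison of levels between replicates.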
